A study of Bos indicus with 55 samples.

Results

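MiR-2284 and miR-2285 are among the largest miRNA families catalogued in cattle. MicroRNAs are short RNAs that a protein complex uses to bind messenger RNAs and lower their output. Both families belong to the ruminant lineage, where repeat-derived hairpins multiplied into many similar copies, and the function of most copies is not characterised. Extracellular vesicles (EVs) are small membrane particles that carry RNA out of cells, and in early pregnancy they pass between the conceptus (the embryo with its membranes) and the lining of the uterus.

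Every entry of the EV miRNA count table whose name starts with bta-miR-2284 or bta-miR-2285 was taken. This gave 146 of the 1024 entries in the table, or 14.3%, with 31 of them in the miR-2284 family and 115 in the miR-2285 family. The rule used names alone.

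The EVs were released over 6 h in culture medium by single bovine conceptuses recovered on day 16, and their small RNA was sequenced in 28 libraries. Conceptuses of 3 types were compared. The in vivo type, conceived after artificial insemination, gave 3 female and 3 male libraries. The in vitro fertilisation (IVF) type gave 7 female and 3 male libraries, and the nuclear transfer type, made by placing the nucleus of another cell in an egg, gave 5 female and 7 male libraries. The donor cells of nuclear transfer were not named in the sources used here. Female and male nuclear transfer conceptuses cannot share a donor line, since each has the sex of its donor cell. Whether conceptuses of the same sex share a donor line is not known. Sex and donor line therefore cannot be told apart within nuclear transfer. No treatment was given, and all groups shared the day of recovery and the culture. The series' design text describes the conceptuses as Bos taurus taurus, while the organism label reads Bos indicus. The series title frames the question as how miRNA cargo of conceptus EVs bears on the endometrium's ability to sense the conceptus.

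Library totals ran from 39263 miRNA counts in in vivo male replicate 2 to 603579 in nuclear transfer female replicate 3, with a median of 120728. Entries miR-2887 and miR-2904 together took 4.11% to 76.3% of a library, with a median of 21.1% in vivo, 55.3% in IVF and 41.4% in nuclear transfer. They weigh on any value given per total count. Among marker miRNAs of tissues that could contribute vesicles, none was at 0 over all libraries. Epithelial markers (the miR-200 family and miR-205) ran from 403 to 9112 per 100000 counts and early embryonic markers (miR-302, miR-367 and miR-371) from 2.42 to 1038. Markers of red blood cells ran from 3.31 to 532 per 100000 counts, of white blood cells from 35.4 to 744, of muscle from 0.994 to 1775 and of liver (miR-122) from 16.5 to 2409. The part of other cell types in the results below was not tested.

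Of the 146 entries, 73 (50%) had at least 1 count in some library, against 582 of the other 878 entries (66.3%). The detected entries were 13 of 31 in the miR-2284 family and 60 of 115 in the miR-2285 family. The 2 families together held 4563 of 4025649 counts, or 0.113%. The 237 entries with the next higher numbers, catalogued in cattle beside the families, had 100 detected entries (42.2%) and held 0.194% of the counts. The 9 entries of the broadly conserved let-7 family were all detected and held 12.4%. The families were thus numerous in the catalogue and rare in the vesicle RNA, as were their neighbours in the numbering.

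A few entries carried most of the reads. MiR-2284x had 2067 pooled counts, 45.3% of those of both families, and it alone was detected in all 28 libraries. Its largest count, 534, was in nuclear transfer female replicate 3, the deepest library. It ranked 94 among all entries by pooled count. MiR-2284y had 1026 counts in 23 libraries, miR-2285o had 439 counts in 23 libraries and miR-2285av had 152 counts in 21 libraries. These 4 entries held 80.7% of the reads of both families. By family, miR-2284 entries held 3184 reads (69.8%) and the more numerous miR-2285 entries 1379 (30.2%), the reverse of their order by number of entries.

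**Figure D1:**
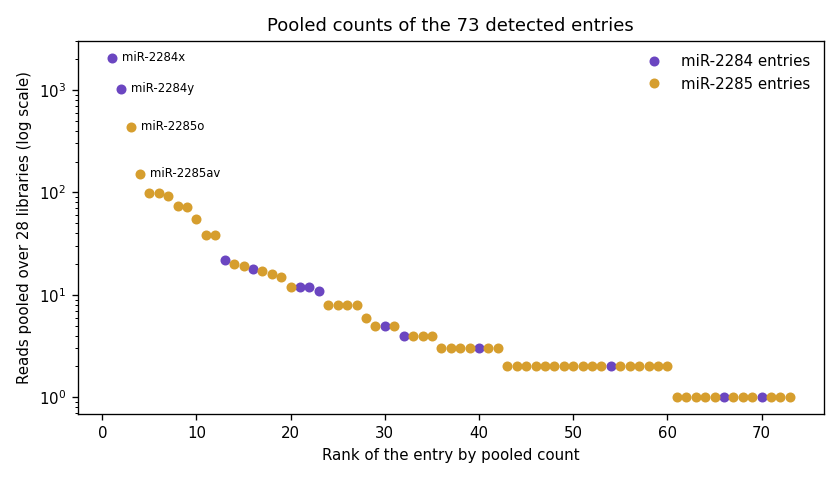
Pooled reads over the 28 libraries (log scale) against rank for the 73 detected entries, coloured by family. The first 4 points, miR-2284x to miR-2285av, lie between 2067 and 152 reads, and 50 points lie below 10.

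Below these 4 came miR-2285u with 99 pooled counts, miR-2285b with 98, miR-2285bc with 92, miR-2285aa with 74, miR-2285p with 72 and miR-2285k with 55. MiR-2285z and miR-2285q each had 38 counts, the same count in every library, so these data do not tell them apart. The 12 most abundant entries together held 93.1% of the reads. Most of the rest were at the edge of detection, with 50 entries having 1 to 9 pooled counts, 13 of them a single count and 18 of them 2. A further 3 pairs of entries had the same counts in every library, each with 1 pooled count. Detection in 1 library alone was the case for 21 entries, and 11 entries were detected in 14 or more libraries.

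**Figure D2:**
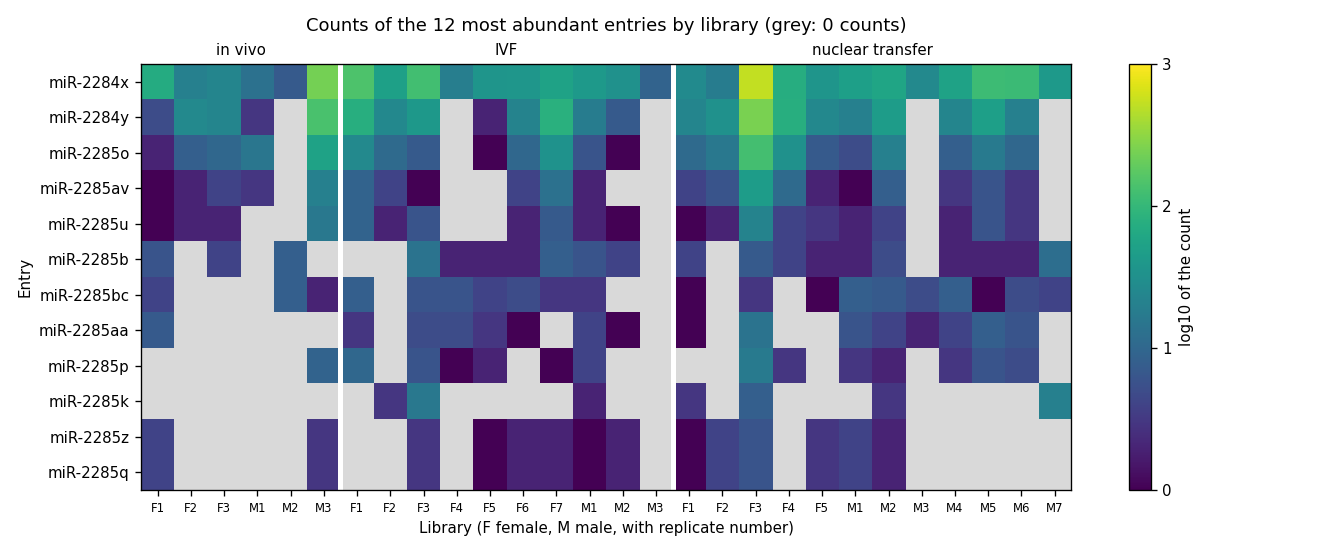
Counts (colour, log10 scale; grey is 0) of the 12 most abundant entries in each library, ordered by conceptus type, sex and replicate. The miR-2284x row has a count in all 28 libraries, and grey cells of miR-2284y and miR-2285o fall in the same 5 columns.

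The number of entries detected in a library had a lowest value of 5, a median of 7.5 and a highest of 21 in vivo. It was 1, 13 and 25 in IVF and 8, 15.5 and 33 in nuclear transfer. The largest number was in the deepest library, nuclear transfer female replicate 3. At the total of the smallest library, the expected number had a median of 6.55 in vivo (5.0 to 11.3), 7.87 in IVF (1.0 to 14.8) and 9.73 in nuclear transfer (5.04 to 13.0). With miR-2887 and miR-2904 left out and every library taken to the smallest remaining total of 28848 counts, the expected number had a median of 6.40 in vivo (4.98 to 11.9), 9.76 in IVF (1.0 to 17.4) and 10.5 in nuclear transfer (6.34 to 14.8). The ranges of the 3 types overlapped on both totals. IVF male replicate 3 stood apart with 9 reads of the families in 41396 counts, all of them miR-2284x.

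Detection in all 3 types was found for 20 entries. Counts in 1 type alone were found for 3 entries in vivo, 10 in IVF and 17 in nuclear transfer, in the order of the number of libraries. These are 30 of the 73 detected entries (41.1%), against 107 of 582 detected entries outside the families (18.4%) and 20.9% of all 655. Among entries with 1 to 9 pooled counts the shares were 29 of 50 (58%) in the families and 107 of 199 (53.8%) outside them, so that the families were near the background of equally rare entries. The largest pooled count among these was 3 in vivo, 3 in IVF and 20 in nuclear transfer. That entry was miR-2285ba, and 18 of its 20 counts came from nuclear transfer female replicate 3.

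The summed reads of both families per 100000 counts had a lowest value of 65.9, a median of 98.6 and a highest of 134 in vivo. In IVF they were 21.7, 68.3 and 150, and in nuclear transfer 35.0, 109 and 200. All 3 ranges overlapped. Pooled over libraries, the level was 111 per 100000 counts in vivo (95% Poisson interval 103 to 119), 92.3 in IVF (87.2 to 97.5) and 129 in nuclear transfer (124 to 134). These intervals cover counting error only, and reads without molecular identifiers are not independent molecules. Without the library that gave each type its most reads, the levels were 94.4 in vivo (without male replicate 3), 82.1 in IVF (without female replicate 1) and 105 in nuclear transfer (without female replicate 3). In bulk vesicle RNA, fewer vesicles from a cell type and less RNA per vesicle cannot be told apart.

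The order of the types by their median depended on the total used. With miR-2887 and miR-2904 left out of the library total, the median was 117 in vivo (87.4 to 200), 168 in IVF (23.8 to 286) and 191 in nuclear transfer (78.2 to 233) per 100000 remaining counts. With library sizes scaled by TMM, a correction for differences in composition, the medians were 63.2 in vivo, 81.9 in IVF and 106 in nuclear transfer per 100000. IVF thus stood below in vivo on all counts and above it on the remaining counts and with TMM scaling, with overlapping ranges each time. A sum over entries chosen with results known is given here as a description and was not tested.

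By sex, pooled reads of both families were 165 per 100000 counts in nuclear transfer females and 94.6 in nuclear transfer males. In IVF they were 103 in females and 53.1 in males, and in vivo 106 in females and 113 in males. The in vivo male value rested on replicate 3, which gave 500 of the 566 reads, and without it the level was 66.0 (95% Poisson interval 51.1 to 84.0). The nuclear transfer female value also rested mostly on its replicate 3, which gave 1092 of the 1568 reads and 603579 of the 952648 counts. Medians per library were 129 in females and 66.2 in males in vivo and 97.5 and 43.5 in IVF, with overlapping ranges in both types. The share of miR-2887 with miR-2904 also differed by sex in nuclear transfer, with a median of 24.4% in females (5.17% to 44.5%) and 44.6% in males (30.3% to 59.4%). Per library, the sum in nuclear transfer had a median of 122 per 100000 counts in females (98.9 to 200) and 84.2 in males (35.0 to 142). On the remaining counts its median was 191 in females (142 to 230) and 195 in males (78.2 to 233). In vivo the medians on the remaining counts were 162 in females (87.4 to 200) and 105 in males (88.6 to 130), and in IVF 183 (112 to 286) and 129 (23.8 to 189). The medians of the sexes thus lay close together in nuclear transfer once those entries were out of the total, and apart with overlapping ranges in the other types.

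**Figure D3:**
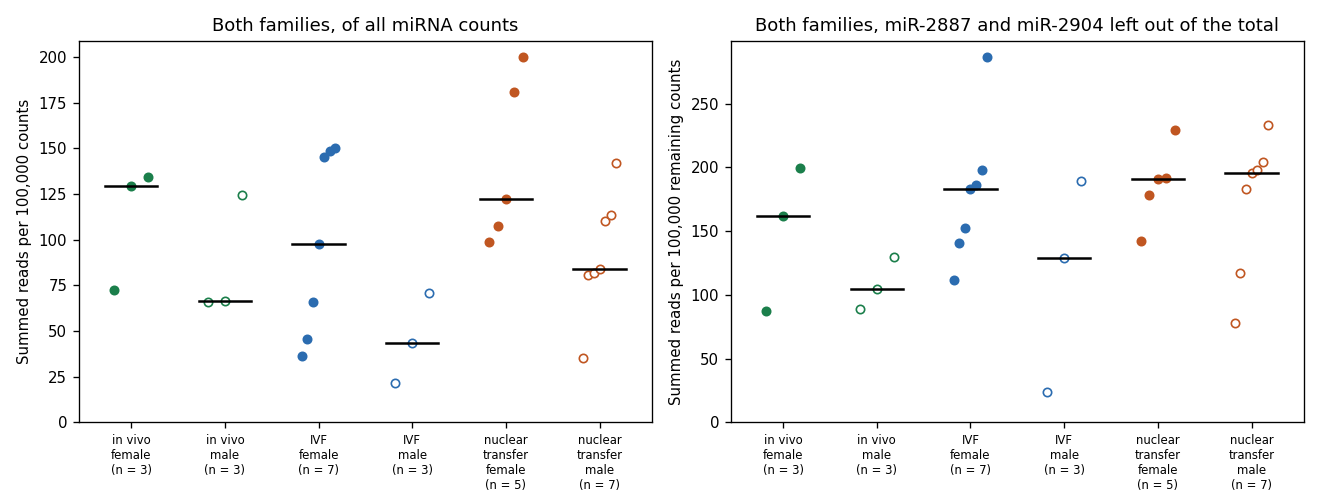
Summed reads of both families per 100000 counts in each library by conceptus type and sex, with all counts (left) and without miR-2887 and miR-2904 (right) as the total; points are libraries and bars are medians. Nuclear transfer medians lie at 122 (female) and 84.2 (male) on the left and at 191 and 195 on the right.

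Only 4 of the 146 entries (2.74%) passed the filter on low counts of the edgeR fit over 28 libraries, against 236 of the other 878 (26.9%). These were miR-2284x, miR-2284y, miR-2285o and miR-2285av. The other 142 did not pass the filter and were not tested in that fit. Levels in the next paragraphs are CPM, counts divided by a library size that TMM scaling has corrected for differences in composition.

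MiR-2284x, the leading entry, was at 118 CPM at the lowest, 212 at the median and 805 at the highest in vivo. In IVF it was at 136, 363 and 825 CPM, and in nuclear transfer at 222, 431 and 1001 CPM. Its means were 359 ± 297 CPM in vivo (SD, n = 6), 405 ± 182 in IVF (SD, n = 10) and 490 ± 216 in nuclear transfer (SD, n = 12). The medians rank in vivo, IVF, nuclear transfer, yet the 3 ranges overlapped nearly throughout and no neighbours in that order differed beyond their spread.

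MiR-2284y, the second entry of its family, was at 0, 123 and 375 CPM in vivo as lowest, median and highest. In IVF it was at 0, 165 and 454 CPM, and in nuclear transfer at 0, 241 and 759 CPM. Each type held at least 1 library without a read of it. The miR-2285 entries were lower. MiR-2285o was at 0, 84.6 and 194 CPM in vivo, at 0, 51.3 and 193 CPM in IVF and at 0, 75.3 and 325 CPM in nuclear transfer. MiR-2285av was at 0, 26.6 and 55.2 CPM in vivo, at 0, 12.6 and 73.7 CPM in IVF and at 0, 26.9 and 108 CPM in nuclear transfer. For both, the IVF median was the lowest of the 3, within overlapping ranges.

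**Figure D4:**
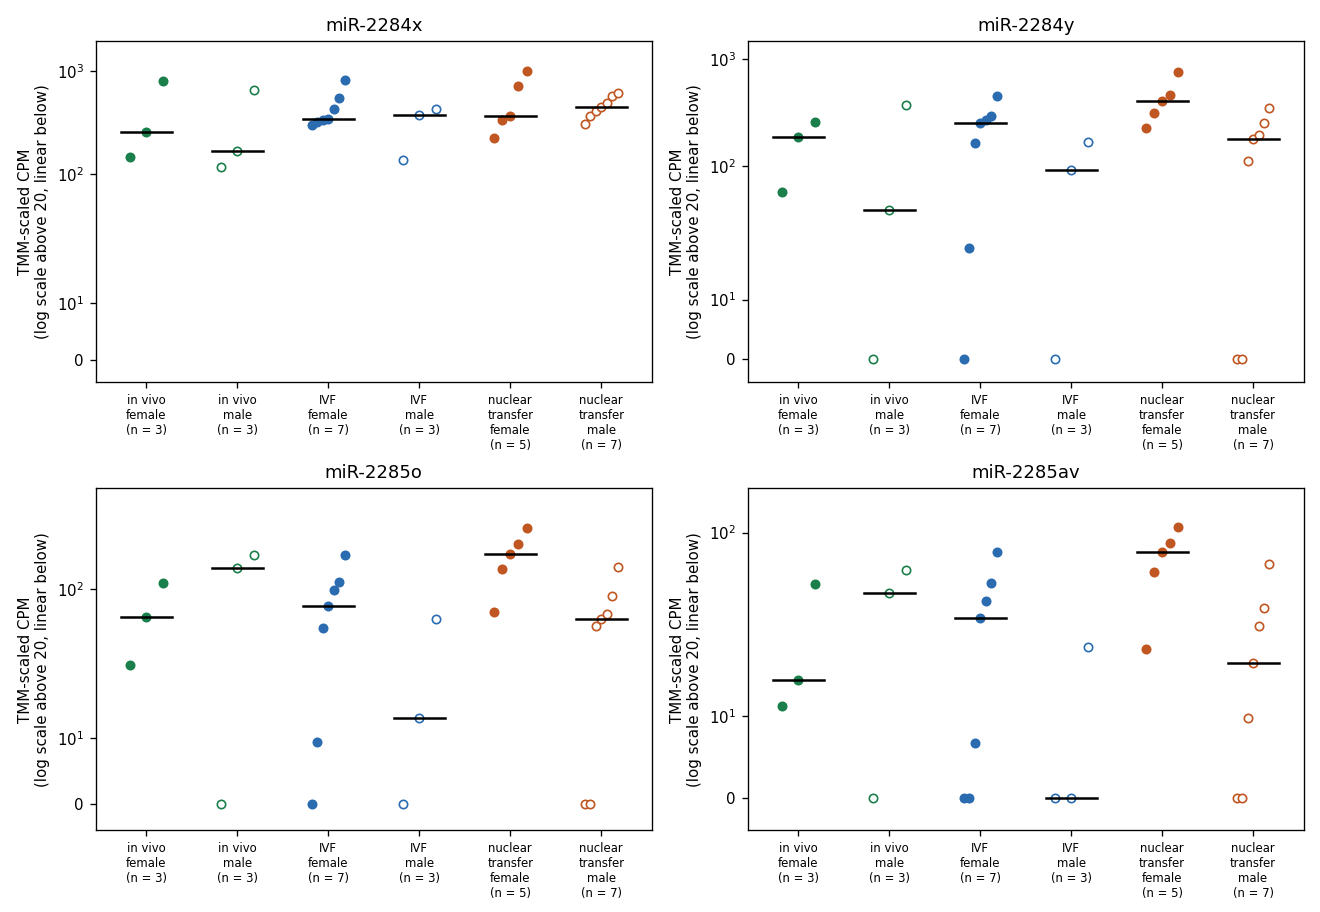
TMM-scaled CPM of the 4 tested entries in each library by conceptus type and sex (log scale above 20, linear below); points are libraries and bars are medians. MiR-2284x is above 0 in every library, and the points of the types overlap in all 4 panels.

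The 3 comparisons between types share their libraries and are not independent of each other. The 4 entries are not independent either, since miR-2284y, miR-2285o and miR-2285av were correlated over the libraries (Pearson's r 0.84 to 0.96). The medians of the 4 folds below are therefore descriptions. Between IVF and in vivo, 0 of the 4 entries passed the threshold by edgeR (adjusted p under 0.05), where 0% of the 240 tested miRNAs did. Their fitted log2 folds were 0.06 ± 0.46 (SE) for miR-2284x, -0.20 ± 0.90 for miR-2284y, -0.96 ± 0.85 for miR-2285o and -0.92 ± 0.89 for miR-2285av. The median of the 4 was -0.56, against 0.01 over all tested miRNAs. The smallest adjusted p of the 4 by edgeR was 0.578. None of the 4 had an unadjusted p under 0.05 with edgeR, DESeq2 or limma.

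Between nuclear transfer and in vivo, 0 of the 4 passed by edgeR, where 0.417% of tested miRNAs did. The log2 folds were 0.47 ± 0.44 for miR-2284x, 0.73 ± 0.86 for miR-2284y, 0.31 ± 0.78 for miR-2285o and 0.42 ± 0.78 for miR-2285av, with a median of 0.44 against 0.15 over all tested miRNAs. Between nuclear transfer and IVF, 0 of the 4 passed, where 1.25% did. The log2 folds were 0.40 ± 0.39, 0.94 ± 0.79, 1.27 ± 0.75 and 1.34 ± 0.78 in the same order, with a median of 1.11 against 0.06 over all. The adjusted p of miR-2285o and of miR-2285av by edgeR was 0.512 in that comparison. Unadjusted, 0 of the 4 had p under 0.05 by edgeR or DESeq2 and 1 did by limma in each of these 2 comparisons. The standard errors of the miR-2284y and miR-2285 folds in these 2 comparisons, 0.75 to 0.86, were too large to tell folds of this size from 0.

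For the mean difference of male and female libraries over the 3 types, 0 of the 4 passed by edgeR, where 0% of tested miRNAs did. All 4 log2 folds were below 0, at -0.34 ± 0.35 for miR-2284x, -0.97 ± 0.70 for miR-2284y, -0.83 ± 0.65 for miR-2285o and -0.97 ± 0.67 for miR-2285av. Their median was -0.90, against -0.04 over all tested miRNAs, and the adjusted p of the last 3 by edgeR was 0.743. These last 3 were correlated over the libraries, so the shared sign of the 4 folds is not 4 independent results. In the test of whether type differences depend on sex, 0 of the 4 passed, where 0% of tested miRNAs did, and their smallest adjusted p was 0.579. None of the 4 had an unadjusted p under 0.05 in either test with edgeR, DESeq2 or limma.

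Within nuclear transfer, part of the vesicle miRNAs differed between male and female libraries. Sex and donor line cannot be told apart in this comparison, nor in those of single entries below. Whether libraries of the same sex share a donor line is not known. In the fit of the 12 nuclear transfer libraries, 22.2% of the 180 tested miRNAs differed between males and females by edgeR. Of the families, miR-2284x, miR-2284y and miR-2285o were tested there and 0 of the 3 passed. With 3 entries tested, that count cannot be read as a difference from the background.

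MiR-2284y had 23, 33, 246, 77 and 25 counts in nuclear transfer female replicates 1 to 5 and 20, 45, 0, 23, 50, 20 and 0 counts in male replicates 1 to 7. Scaled, females ran from 228 to 759 CPM with a median of 408 and males from 0 to 346 CPM with a median of 177. The highest males overlapped the lowest females. MiR-2285o had 11, 16, 127, 33 and 7 counts in the females and 5, 20, 0, 8, 17, 10 and 0 in the males, or 63.8 to 325 CPM against 0 to 154 CPM. Here too the ranges overlapped, and the same 2 male libraries, replicates 3 and 7, had no read of either entry. The log2 folds of male over female were -1.26 ± 0.81 for miR-2284y (adjusted p = 0.266 by edgeR), -1.52 ± 0.74 for miR-2285o (adjusted p = 0.141) and -0.02 ± 0.49 for miR-2284x (adjusted p = 0.988). Their median was -1.26, against 0.05 over all tested miRNAs there. MiR-2284y and miR-2285o were correlated over these libraries (Pearson's r = 0.97), so their folds are not independent. None of the 3 entries had an unadjusted p under 0.05 by edgeR, and 1 did by DESeq2 and by limma. With the share of miR-2887 and miR-2904 as a covariate, 0 miRNAs of the 180 passed in this comparison. That share itself differed by sex here, with a median of 24.4% in females and 44.6% in males. A fit with it as covariate cannot fully separate the share from sex, so no conclusion is drawn from it. With miR-2887 and miR-2904 left out of the counts instead, 40 of 176 miRNAs passed. The part of this share in the differences by sex was not tested.

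MiR-2285bc had more reads in male than in female nuclear transfer libraries. There were 1, 0, 3, 0 and 1 counts in the females and 8, 7, 5, 8, 1, 5 and 4 in the males, 5 reads in 3 of 5 females against 38 reads in 7 of 7 males. It did not pass the filter of the fit. With a lower filter (10 CPM in 3 libraries) its log2 fold was 2.88 ± 0.88 (adjusted p = 0.0321 by edgeR), and with no filter on low counts its adjusted p was 0.0584. With the lower filter 1 of 16 tested entries of the families passed, where 13.2% of 340 miRNAs did. In IVF miR-2285bc had 32 reads in 6 of 7 females and 3 reads in 1 of 3 males, the opposite order. With no filter miR-2285ba passed (log2 fold -4.10 ± 1.23, adjusted p = 0.0137), on reads that lay almost entirely in female replicate 3. That was 1 of 57 tested entries, where 10.9% of 580 miRNAs passed.

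Levels below the filter also differed in which libraries they came from. MiR-2285k had 0 counts in the 6 in vivo libraries, which allows up to 0.406 per 100000 pooled counts, 21 in 3 of 10 IVF libraries and 34 in 4 of 12 nuclear transfer libraries. Of its 55 reads, 20 came from nuclear transfer male replicate 7 and 16 from IVF female replicate 3. With no filter on low counts its adjusted p by edgeR was 0.252 for IVF and 0.207 for nuclear transfer against in vivo. MiR-2285aa was detected in 1 of 6 in vivo, 7 of 10 IVF and 8 of 12 nuclear transfer libraries, and miR-2285p in 1, 6 and 7 of the same. MiR-2285u, in contrast, was detected in 4 of 6, 7 of 10 and 10 of 12 libraries, and miR-2285b in 3, 7 and 10 of them. The in vivo libraries were fewer and mostly shallower, with a median total of 74370 counts against 136808 in IVF and 120883 in nuclear transfer. MiR-2887 and miR-2904 took a median of 21.1% of the counts in vivo, 55.3% in IVF and 41.4% in nuclear transfer. The remaining counts thus differed less between types than the totals. In vivo male replicate 3, with 400928 counts, had 0 counts of miR-2285k and miR-2285aa and 9 of miR-2285p. The part of depth in these detections was not tested.

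The abundant entries fell into different patterns over the libraries. MiR-2284y and miR-2285o were at 0 in the same 5 libraries: in vivo male replicate 2, IVF female replicate 4, IVF male replicate 3 and nuclear transfer male replicates 3 and 7. MiR-2285av and miR-2285u were at 0 in those 5 as well and each in 2 more. MiR-2284x had 7, 19, 9, 26 and 42 counts in the 5 libraries, so reads of the families were present in each. In IVF female replicate 4, a count of 0 allows up to 2.47 per 100000 counts, of which miR-2887 and miR-2904 took 76.3%. It allows up to 7.64 in in vivo male replicate 2 and 7.25 in IVF male replicate 3. In nuclear transfer male replicates 3 and 7 it allows 2.50 and 2.89. Pooled over all libraries, miR-2284y was at 25.5 per 100000. MiR-2285bc, by comparison, was at 0 in 8 libraries, of which 1 was among these 5.

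Where miR-2284y had at least 10 counts (19 libraries), the ratio of miR-2285o to miR-2284y ran from 0.175 to 0.516 with a median of 0.425. The ratio of miR-2285av to miR-2285o, in the 14 libraries with at least 10 counts of the latter, ran from 0.20 to 0.40 with a median of 0.364 and a coefficient of variation of 14.7%. The ratio of miR-2284y to miR-2284x ran from 0.0 to 1.83 over the 26 libraries with at least 10 counts of miR-2284x, with a median of 0.452. These sets of libraries differ. In the same 19 libraries the ratio of miR-2284y to miR-2284x ran from 0.179 to 1.83 with a coefficient of variation of 59.7%, and that of miR-2285o to miR-2284y had one of 23.8%. The ratio of miR-2285av to miR-2285o ran from 0.143 to 0.40 there, with a coefficient of variation of 21.0%. How reads that match several similar entries were counted is not given in the sources used here.

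**Figure D5:**
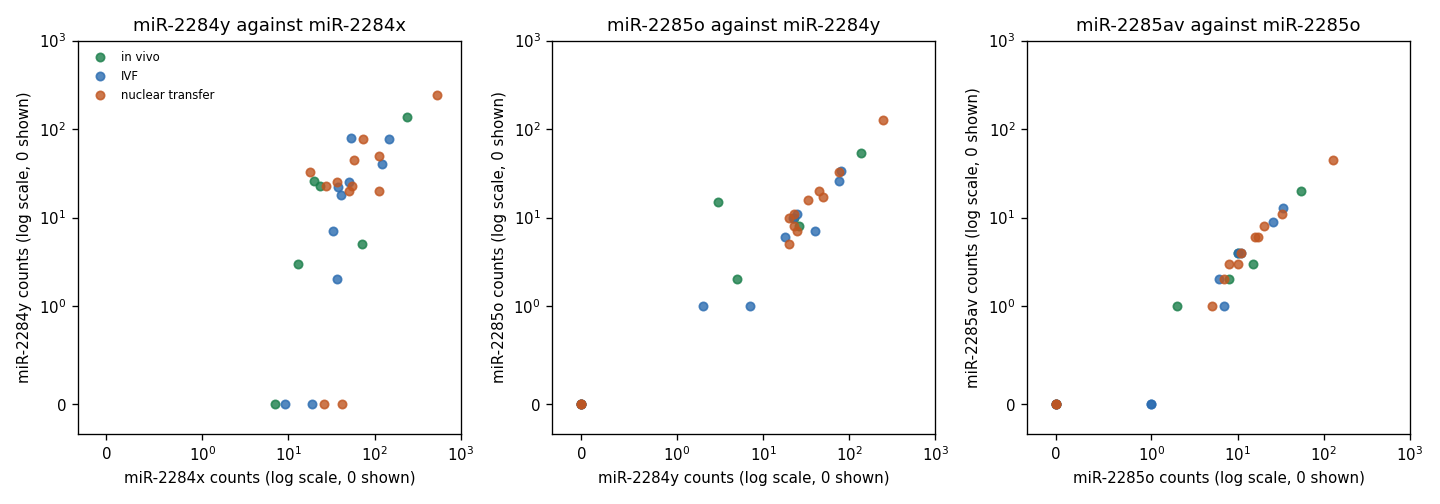
Counts of miR-2284y against miR-2284x, of miR-2285o against miR-2284y and of miR-2285av against miR-2285o in each library (log scales with 0 shown), coloured by conceptus type. Points scatter in the first panel and lie along a line in the third, where 5 libraries share the point at 0.

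Across the 28 libraries, log2 CPM of miR-2285o and miR-2285av had Pearson's r = 0.96 and Spearman's rho = 0.98 (permutation p = 1e-05 for both, adjusted 2e-05 over the 6 pairs of tested entries). Without the 2 libraries farthest from the median of miR-2285o, r was 0.96. For miR-2284y and miR-2285o, r was 0.90 and rho 0.85 (both permutation p = 1e-05, adjusted 2e-05), and r was 0.87 without 2 libraries. For miR-2284y and miR-2285av, r was 0.84 and rho 0.88 with the same p, and 0.81 without 2 libraries. A p of 1e-05 is the smallest that 100000 permutations can give. The permutations ran over all 28 libraries without regard to type or sex. How reads matching several similar entries were counted is not given, so these p-values do not show that the entries vary as separate RNAs. The libraries at 0 for both entries add to these values: in the 23 libraries with reads of both miR-2284y and miR-2285o, r was 0.72, and in the 21 with both miR-2285o and miR-2285av it was 0.95.

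MiR-2284x followed the other 3 less closely. With miR-2284y its r was 0.48 and rho 0.43 (permutation p = 0.00936 and 0.0240, adjusted 0.014 and 0.036), and r was 0.36 without 2 libraries. With miR-2285o its r was 0.33 and rho 0.22 (permutation p = 0.0895 and 0.266, adjusted 0.107 and 0.266), and with miR-2285av 0.30 and 0.26 (permutation p = 0.125 and 0.188, adjusted 0.125 and 0.226), with r at 0.15 and 0.12 without 2 libraries. In the libraries with reads of both entries, r was 0.25 with miR-2284y (23 libraries), -0.03 with miR-2285o (23) and -0.01 with miR-2285av (21). Within types, the r of miR-2284y with miR-2285o was 0.70 in vivo, 0.94 in IVF and 0.97 in nuclear transfer, and that of miR-2285o with miR-2285av was 0.95, 0.95 and 0.97. The r of miR-2284x with miR-2284y was 0.44, 0.63 and 0.38, and with miR-2285o 0.19, 0.42 and 0.39. All pairs share the library and its scaling factor.

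Outside the families, the tested miRNAs whose log2 CPM was most like that of miR-2284x over the 28 libraries were miR-186 (Spearman's rho 0.85), miR-378 (0.78), miR-339a (0.77) and miR-148a with miR-148d (0.75 each, with the same counts in every library). The median rho over the 236 tested miRNAs outside the families was 0.09 and the lowest was -0.65, for miR-10b. The values for miR-2284y (0.43), miR-2285o (0.22) and miR-2285av (0.26) lay above that median. The named miRNAs are the 5 highest, picked for their likeness, so the values of the families are not compared with theirs. These values rank 236 miRNAs by likeness over the same libraries and are descriptions with no test.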

How the data were processed

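Small RNA of conceptus EVs was analysed in 28 libraries. Each library has its own code in the labels, read here as the number of a different animal. The 27 endometrium libraries were not used here. The authors deposited whole read counts per miRNA, not normalized. Per the submitters' processing notes, cutadapt, Bowtie, STAR, featureCounts and DESeq2 were used on build ARS-UCD1.2. Tool versions and roles, the miRNA catalogue and how reads matching several entries were handled were not given in the sources used here; unique or shared assignment could change the counts of near-identical entries.

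All miRNAs entered 1 edgeR fit (version 4.0.16, R 4.3.3) after the filterByExpr filter (count of at least 10, total of at least 15) and TMM scaling, with the two-sided quasi-likelihood F test on 6 group means and Benjamini-Hochberg adjustment at 0.05; the sex test within nuclear transfer used its 12 libraries alone. A type contrast is the mean of the female and male differences. The SE of an edgeR fold was derived from its test, as the absolute log2 fold divided by the square root of F. The fit was tested on simulated data with planted folds larger than those of the 4 entries that passed the filter. That test does not cover folds of the size given for them. DESeq2 1.42.0 and limma 3.58.1 were among the alternatives. Log2 CPM used a prior count of 2. Detection means at least 1 count, and the expected number at the smallest total is hypergeometric. Pooled levels have 95% exact Poisson intervals, and a count of 0 allows up to 3 counts. Group and replicate numbers came from the sample titles, and no batch is labelled.

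Entries named are those that passed the filter, the 12 most abundant, any past the threshold, and the 5 miRNAs outside the families most like miR-2284x. Others named (miR-2285ba, and miRNAs in the last section) were chosen after their values were seen. Pooled levels without 1 library, detection at equal remaining counts and ratios in the same libraries were added after seeing the data. Families, lists and tests were chosen with earlier results of these data known. No mature sequences are printed because the references used here do not list the members.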

Additional observations from a re-analysis of the deposited data

How the results depend on the processing

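No log2 fold of an entry that passed the filter of the main fits passed the threshold under any alternative run. Of 642 recomputed folds, 607 had the same direction, but most of these runs left out 1 library and shared nearly all their data. MiR-2284x reversed in 14 of 37 runs between IVF and in vivo and in 12 of 22 by sex within nuclear transfer. Within nuclear transfer, the number of entries of the families past the threshold by edgeR was 1 of 16 with 10 CPM in 3 libraries as the filter (miR-2285bc; 13.2% of all miRNAs) and 1 of 57 with no filter (miR-2285ba; 10.9%). MiR-2284x between IVF and in vivo changed sign to -0.0778 with the former filter and -0.28 with library totals alone, and ranged from -0.25 to 0.57 with 1 library left out. Its sex difference ranged from -0.68 to 0.0673 with 1 library left out. Within nuclear transfer it was 0.0151 with DESeq2, 0.0242 with RLE scaling, 0.20 with limma, 0.75 with the miR-2887 and miR-2904 share as covariate, 0.00828 without these 2 entries, and -0.49 to 0.36 with 1 library left out. MiR-2284y between IVF and in vivo was 0.49 with limma, 0.84 with the covariate and -0.78 to 1.14 with 1 library left out, the highest without in vivo male replicate 3. MiR-2285o between nuclear transfer and in vivo was -0.0930 with library totals alone and -0.0631 to 0.62 with 1 library left out. The cause of these changes was not tested. The median summed level per 100000 was 63.2 in vivo, 81.9 in IVF and 106 in nuclear transfer with TMM sizes, which puts IVF above in vivo, and 168 in IVF and 191 in nuclear transfer with these 2 entries out of the total; with 1 library left out it ran from 72.5 to 125 in vivo.

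With the replicate number as a replicate block, 0 entries of the families passed in any of the 6 comparisons, and miR-2284x within nuclear transfer was 0.18. Over all miRNAs the block moved the calls between nuclear transfer and in vivo from 1 to 6. The values did not show pairing by number: same-numbered libraries of different groups had a median correlation of deviations of 0.0074 over 53 pairs (0.0021 over 264 others). Single pairs ran from -0.63 to 0.69 for the same number and from -0.67 to 0.67 for others. The median therefore does not settle whether some libraries were paired. Calls over all miRNAs ranged from 0 to 22 between IVF and in vivo (0 with edgeR, 13 with DESeq2, 22 with limma, 21 without IVF male replicate 3), 0 to 6 between nuclear transfer and in vivo, 0 to 5 between nuclear transfer and IVF, and 0 to 63 by sex within nuclear transfer (16 without female replicate 3 or male replicate 3). Library totals alone moved the median log2 fold of all miRNAs between IVF and in vivo to -0.35. The 142 entries below the filter were tested only with lower filters or, for some, with 1 library left out.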

Other observations

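The miRNAs outside the families most like miR-2284y over the 28 libraries, a ranking added after the values were seen, were miR-504, miR-449a and miR-224 (Spearman's rho 0.61 each), miR-30f (0.59) and miR-450a (0.58), against a median of -0.04 over the 236 tested. None of these was among the entries most like miR-2284x. The correlations are descriptions of the same libraries with no test.

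MiR-2284ac, which had 22 counts, was at 0 in the 6 in vivo libraries and had 8 counts in 4 IVF and 14 in 6 nuclear transfer libraries. It was tested only with lower filters, where its log2 fold between nuclear transfer and in vivo was 3.23 ± 1.30 (adjusted p = 0.296 by edgeR). MiR-2285g had 17 counts in 4 libraries, 8 of them in 1 library.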
